A study of Mus musculus with 33 samples.

Results

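Inflammatory monocytes (IM) and tumour-associated macrophages (TAM) sorted from mouse pancreatic tumours were compared for the genes that each population expresses, pooled over treatment groups. All libraries of these populations entered, 12 of IM and 9 of TAM, out of 33 in the series. For each gene the pooled mean level over the libraries of a population was scaled to the same sum over all genes, and the ratio of IM to TAM was taken. Of 53735 genes, 14232 had a scaled level of at least 50 in either population and were kept. The other 12 libraries, of CD8 T cells, served as a reference for lymphocyte genes.

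The mice were C57BL/6 and carried orthotopic tumours of KCKO cells, a mouse line of pancreatic ductal adenocarcinoma, with titanium markers placed beside the tumour. Per the labels, IM were sorted as CD45+CD11b+Ly6C+Ly6G-, TAM as CD45+CD11b+Ly6CmodLy6G-F480+ and CD8 T cells as CD45+CD8+. Each population came from 4 groups: unirradiated tumours, tumours given stereotactic body radiotherapy (SBRT, 4 fractions of 6 Gy on days 6 to 9), tumours injected on day 10 with microspheres that held 0.5 µg of interleukin 12 (IL-12), and tumours given both. IM had 3 libraries in every group. TAM had 3 after IL-12 and 2 in each of the other groups. The protocol also names empty microspheres and does not say which groups received them. The labels do not say whether a library came from 1 mouse or from several.

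The tables hold no value for a single library. They give 1 mean per gene and population, and the populations were normalised separately, so IM could not be tested against TAM and every ratio between them is a description. The spread between libraries could be judged only from the deposited fold changes and their statistics. Over the 8078 genes with a level of at least 500 in both populations, the median SD implied by them was 0.17 on the log2 scale in IM and 0.18 in TAM, which are lower bounds because the fold changes were shrunken. These SDs describe libraries within treatment groups and cover neither differences between treatments nor the scaling between populations. Levels are not corrected for gene length and are therefore compared between populations, never between genes. In bulk libraries, fewer cells of a type and less RNA per cell cannot be told apart.

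Classical monocytes leave the bone marrow through the chemokine receptor CCR2, carry Ly6C and enter inflamed tissue and tumours. There they can differentiate into macrophages, which lose Ly6C, gain F4/80 (Adgre1) and the mannose receptor (Mrc1), and make the C1q subunits of complement, apolipoprotein E and lysosomal enzymes. Macrophages of the pancreas also include cells seeded before birth.

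The promoters of 4 genes are shown because these genes mark both ends of the comparison, Ly6c2 and Chil3 on the monocyte side and Ms4a7 and C1qb on the macrophage side. Each line is the 250 bases before the transcription start, from RefSeq on GRCm38.p6, read 5′ to 3′ on the minus strand. The spans are chr15:75111972-75112221 for Ly6c2, chr3:106167565-106167814 for Chil3, chr19:11336147-11336396 for Ms4a7 and chr4:136886201-136886450 for C1qb. Capitals mark a match to the PU.1 letters in Ly6c2 and to the interferon response letters in Chil3 and Ms4a7.
Ly6c2: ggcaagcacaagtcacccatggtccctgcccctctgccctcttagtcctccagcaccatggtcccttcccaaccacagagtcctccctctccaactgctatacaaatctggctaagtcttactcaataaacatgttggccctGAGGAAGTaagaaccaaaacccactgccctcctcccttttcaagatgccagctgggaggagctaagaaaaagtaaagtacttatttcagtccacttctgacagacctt
Chil3: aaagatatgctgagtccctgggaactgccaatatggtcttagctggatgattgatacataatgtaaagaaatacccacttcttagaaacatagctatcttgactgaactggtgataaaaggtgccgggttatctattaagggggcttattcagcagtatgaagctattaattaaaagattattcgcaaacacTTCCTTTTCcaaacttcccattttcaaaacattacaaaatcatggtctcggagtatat
Ms4a7: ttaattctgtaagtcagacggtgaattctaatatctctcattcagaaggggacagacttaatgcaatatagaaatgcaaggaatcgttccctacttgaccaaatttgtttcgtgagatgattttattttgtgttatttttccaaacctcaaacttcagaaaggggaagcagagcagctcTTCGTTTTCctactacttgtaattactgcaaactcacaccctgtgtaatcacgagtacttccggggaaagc
C1qb: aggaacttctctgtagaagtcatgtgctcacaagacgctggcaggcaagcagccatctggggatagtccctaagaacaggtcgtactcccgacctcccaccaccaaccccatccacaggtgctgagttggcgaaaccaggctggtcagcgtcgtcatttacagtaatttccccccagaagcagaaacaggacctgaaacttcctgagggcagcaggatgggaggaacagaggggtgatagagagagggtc

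The PU.1 match shown in Ly6c2 began 108 bases before the start and a second lay 26 bases beyond it, outside the bases printed, and the interferon response match began 58 bases before it in Chil3 and 71 in Ms4a7. None of the 6 motifs searched was found in the C1qb window. Motifs were searched on both strands from 250 bases before to 50 after the start in the 8623 kept genes with a promoter entry (60.6%), and matches of different motifs may share letters. GAGGAAGT, a form of the site of PU.1, a transcription factor of myeloid cells, stood in 12 of 120 promoters of genes at least 4-fold higher in IM (10.0%). It stood in 10 of 159 promoters of genes at least 4-fold higher in TAM (6.29%) and in 4.16% of all. GAAANNGAA, letters of the interferon response element, stood in 12.5%, 14.5% and 9.36% of the same sets. The AP-1 letters TGAGTCA stood in 6.67%, 6.29% and 4.66%, and the Maf letters TGCTGAC in 6.67%, 4.40% and 4.44%. TTGCGCAA, a C/EBP form, stood in none of either set and in 0.383% of all, and TCACGTGA, the lysosomal gene element CLEAR, in 0.833%, 0 and 2.28%. These shares describe the windows and were not tested.

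IM and TAM expressed most genes at like levels. Of the 14231 kept genes above 0 in both, 12445 (87.4%) lay within 2-fold, and the median log2 ratio of IM to TAM was 0.01. Across the 13126 genes with a level of at least 50 in both, the log2 levels had a Pearson correlation of 0.96, over genes, which are not independent replicates. At least 2-fold higher in IM were 604 genes (4.24%), and 1182 (8.31%) were at least 2-fold higher in TAM. At least 4-fold higher were 181 (1.27%) in IM and 272 (1.91%) in TAM. At the 2-fold threshold Crip1 was just inside on the IM side with a log2 ratio of 1.001 and Rarg just outside with 0.9998, and on the TAM side Zbtb4 was just inside with -1.001. Below, higher means at least 2-fold higher. Counts of list members stand against these shares of all kept genes, 4.24% higher in IM and 8.31% higher in TAM.

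**Figure D1:**
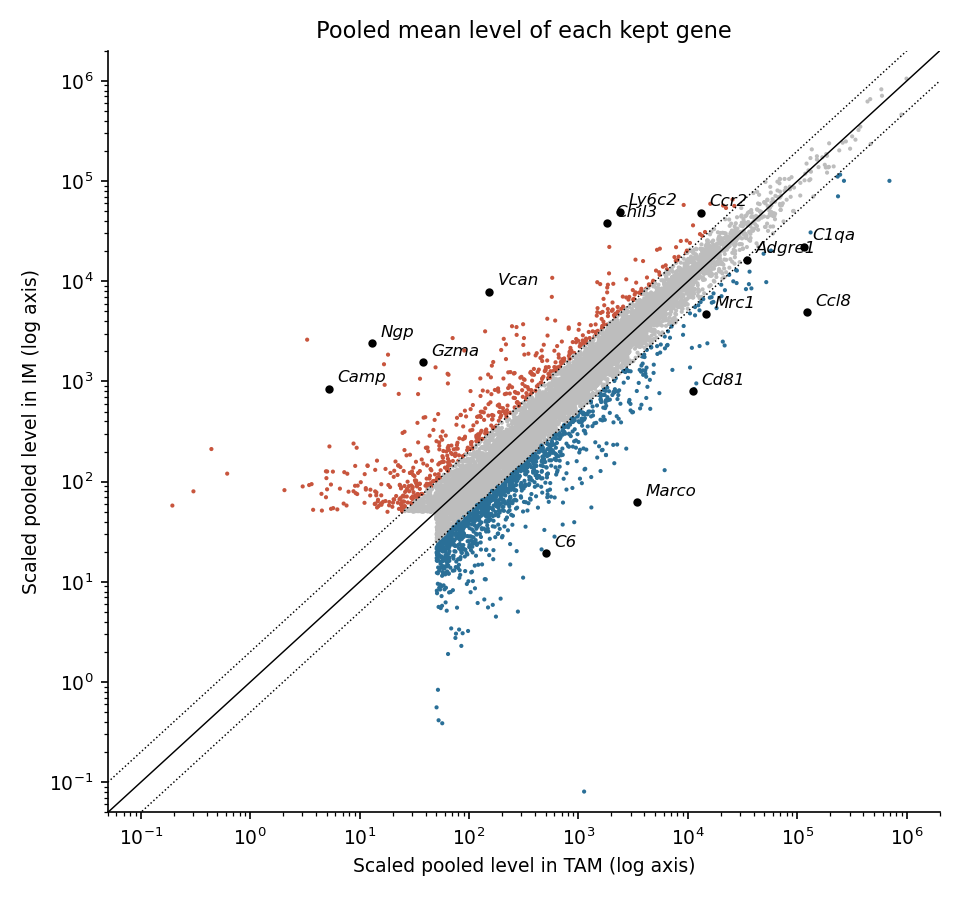
Scaled pooled mean level of each kept gene in TAM (horizontal, log axis) and IM (vertical, log axis), with equality as a solid line and 2-fold as dotted lines; genes at least 2-fold higher in IM are red, those in TAM blue, and labelled genes black. The 12445 genes within 2-fold lie along the line, Ly6c2, Chil3, Vcan and Ngp stand above it, and C1qa, Ccl8, Cd81 and Marco below it.

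The 5 genes taken to mark the populations lay on the sides that the labels give. Ly6c2, which encodes a Ly6C antigen (chr15:75108158-75111970), had a level of 49602 in IM and 2388 in TAM, 20.8-fold apart. Its implied SDs within treatment groups were 0.18 and 0.24 (log2), which are not an error of that ratio. Ccr2 (chr9:124101950-124113557) had 48437 in IM and 13265 in TAM, a fold of 3.65. On the other side Adgre1, the gene of F4/80 (chr17:57358691-57483527), had 16482 in IM and 34775 in TAM, 2.11-fold higher in TAM. Mrc1 (chr2:14229392-14332057) had 4666 in IM and 14680.2 in TAM, a fold of 3.15, and C1qa (chr4:136895917-136898803) had 22165 in IM and 113793 in TAM, a fold of 5.13. Coordinates are on GRCm38. Ly6C and F4/80 were gates of the sort, so Ly6c2 and Adgre1 check the sort and are no finding. The IM gate as labelled did not use F4/80, and Adgre1 was far above its CD8 level of 319 in both.

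Genes of classical monocytes stood together on the IM side: 15 of 19 were higher in IM and none in TAM, with a median log2 ratio of 2.31. The 15 include Ly6c2 and Ly6c1, genes of the gated Ly6C, and the list was chosen with earlier results of these data known. Vcan, the matrix proteoglycan versican, had 7867 in IM and 152 in TAM. Chil3, a secreted chitinase-like protein, had 37907 and 1823. Hp, haptoglobin, which binds free haemoglobin, had 10830.1 and 575. These 3 differed by between 18.8- and 51.8-fold. Plac8 had 57807 and 9143. Clec4e, the lectin Mincle, was 3.71-fold and Thbs1, thrombospondin, 2.56-fold higher in IM. F13a1, a subunit of clotting factor XIII, Mgst1, Msrb1 and Itgam lay within 2-fold, and Itgam encodes the CD11b of both gates. Ly6c1 was 5.94-fold higher in IM, and reads of the near-identical Ly6c1 and Ly6c2 may have been split between them.

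Genes of patrolling monocytes, Ly6C-low cells that crawl along vessel walls, lay on both sides, with 5 of 14 higher in IM, 3 in TAM and a median log2 ratio of 0.53. Ace, angiotensin-converting enzyme, had 926 in IM and 16.9 in TAM. Adgre4 was 7.40-fold, Pglyrp1, an antibacterial protein, 11.1-fold and Treml4 2.65-fold higher in IM. Cx3cr1, the fractalkine receptor, which macrophages also carry, had 2143 in IM and 6165 in TAM. Cd300e was 3.55-fold and Fabp4, a fatty acid carrier, 2.37-fold higher in TAM. Nr4a1, a nuclear receptor that patrolling monocytes need and that tissue handling also induces, had a log2 ratio of 0.94.

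Adhesion molecules were split, with 7 of 26 higher in IM and 5 in TAM. The integrin chains Itga2, Itga1 and Itgb3 were 8.34-, 4.68- and 4.65-fold higher in IM, and Itgb7, Itga4 and the hyaluronan receptor Cd44 had log2 ratios of 1.49, 1.03 and 1.02. On the TAM side stood the tetraspanin Cd81 (798 against 11047) and the vascular adhesion molecule Vcam1 (2289 against 21638). Of 20 chemoattractant receptors, 5 were higher in IM and 2 in TAM, the latter a share near the 8.31% of all kept genes. Ltb4r1, the leukotriene B4 receptor, had 5395 in IM and 1493 in TAM, whereas Cxcr3, a receptor for interferon-induced chemokines, had 58.5 and 183.

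Matrix genes and proteases lay at both ends, with 7 of 29 higher in IM and 13 in TAM. Besides Vcan and Thbs1, Spp1 (osteopontin, 3.25-fold), Fn1 (fibronectin, 1.44 on the log2 scale) and the urokinase receptor Plaur (1.10) were higher in IM. The proteases Mmp2, Mmp12, Mmp13 and Mmp27 had log2 ratios of -2.72, -2.27, -2.53 and -3.71, while Mmp8, a neutrophil collagenase, was 28.0-fold higher in IM and Mmp9 had -0.14. Col14a1, a collagen that binds fibrils, had 28.3 in IM and 604 in TAM. Col1a1 had 198 and 687. Both sorts required CD45, which fibroblasts do not carry. Fibroblast markers as a list had 4 of 7 kept members higher in TAM and summed levels of 1208 in IM and 2552 in TAM. That list shares Col1a1, Col1a2 and Col3a1 with the matrix genes, so the 2 lists are not independent. The part of fibroblasts in the collagen ratios was not tested.

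Inflammatory cytokines and enzymes lay on both sides, with 4 of 28 higher in IM and 6 in TAM, and 18 within 2-fold. Areg, an EGF receptor ligand, was 5.20-fold, Il6 3.94-fold and Csf1, the macrophage growth factor, 2.68-fold higher in IM. Il12b, which encodes a chain of IL-12, had 86.5 in IM and 879.5 in TAM, and the growth factors Pdgfb and Igf1 were 7.48- and 5.17-fold higher in TAM. Il1b (0.61), Tnf (-0.30) and Nos2 (-0.29) lay within 2-fold.

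Of 29 cytokine and growth factor receptors, 4 were higher in IM and 2 in TAM, the latter a share near the 8.31% of all kept genes. The chains of the IL-12 receptor, which binds the injected cytokine, stood on opposite sides. Il12rb2 had 200.2 in IM and 61.9 in TAM, against 1199 in CD8 cells, and Il12rb1 had 2183 in IM and 4615 in TAM, against 4176 in CD8 cells. Natural killer cell markers were also higher in IM (12 of 13, below), and the part of such cells in the Il12rb2 ratio was not tested. Il1r2, the decoy receptor of interleukin 1 and also a member of the neutrophil list below, had 1893 and 349 in IM and TAM. Csf1r, the receptor of the macrophage growth factor, had 62249.7 in IM and 62427 in TAM, and the GM-CSF receptor chains Csf2ra (0.58) and Csf2rb (0.81) lay within 2-fold.

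Genes of macrophages stood on the TAM side: 22 of 30 were higher in TAM and none in IM, with a median log2 ratio of -1.70. Marco, a scavenger receptor for bacteria and particles, had 62.7 in IM and 3417 in TAM, 54.5-fold apart. Lyve1, a hyaluronan receptor of perivascular macrophages, had 5.05 and 279. Cd5l, a secreted protein of tissue macrophages, had 21.1 and 459.8, and Folr2, a folate receptor, 70.9 and 561. Ms4a7, whose promoter is shown above, had 2499.7 and 20822, 8.33-fold higher in TAM. Mertk and Axl, receptors that clear dying cells, were 2.82- and 2.75-fold higher, and their ligand Gas6 12.8-fold. Not all macrophage genes separated the populations: Fcgr1 (CD64) had 15209.6 in IM and 15168 in TAM, and Csf1r, Cd68, Maf, Aif1, Siglec1 and Sepp1 also lay within 2-fold.

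**Figure D2:**
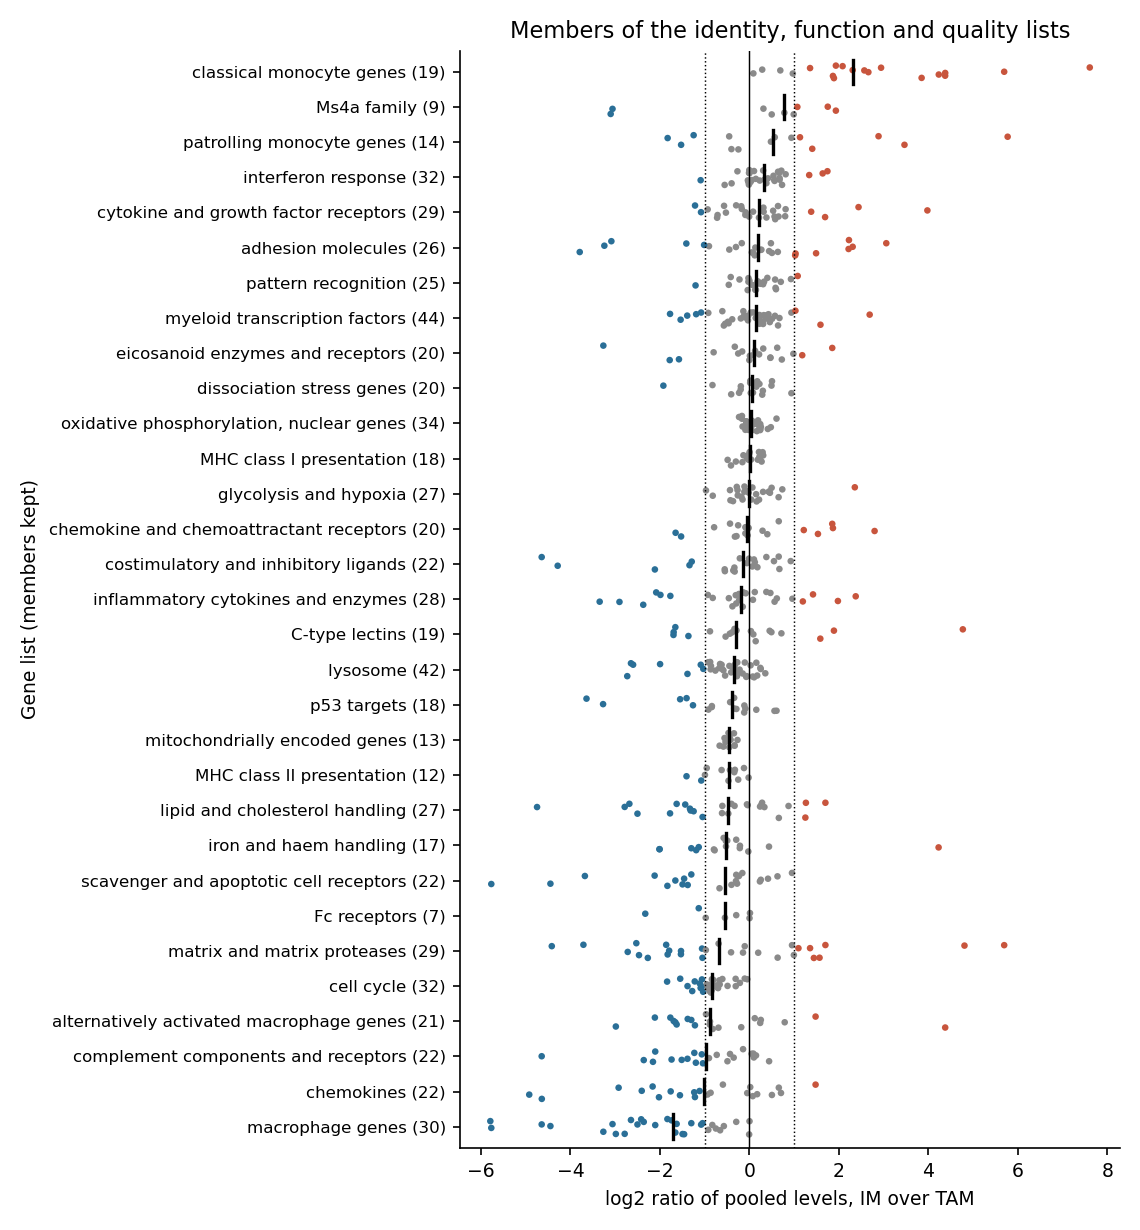
Log2 ratio of pooled levels, IM over TAM (horizontal), of each kept member of the identity, function and quality lists, ordered by the median (black bar), with dotted lines at 2-fold and the number of kept members in brackets; red points are at least 2-fold higher in IM and blue in TAM. Classical monocyte genes (median 2.31) and macrophage genes (median -1.70) lie at the ends, and all oxidative phosphorylation and MHC class I genes stay within 2-fold. Both of the lists at the ends hold genes of gated antigens.

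Complement genes were higher in TAM or level: 11 of 22 were higher in TAM and none in IM, with a median log2 ratio of -0.97. The C1q subunits, which start the classical pathway, stood together. C1qb had 70492 in IM and 235157 in TAM (3.34-fold), and C1qc had 30734 and 132053 (4.30-fold). C4b, the next component of that pathway, had a log2 ratio of -1.51 and the inhibitor Serping1 -1.38. Vsig4, a receptor for C3 fragments, had 3.04 and 75.9. C3 (-0.49), properdin Cfp (-0.35) and the receptor C5ar1 (-0.43) lay within 2-fold. C6, of the membrane attack complex, had 19.3 and 503, and the IM tables give it a fold change but no p, which is how DESeq2 marks a gene with an extreme count in a library.

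Scavenger and apoptotic cell receptors held 10 of 22 higher in TAM and none in IM, while Msr1 (0.26), Scarb1 (0.42) and Cd36 (-0.40) lay within 2-fold. Of 7 Fc receptors, 2 were higher in TAM: Fcgrt, which recycles IgG, with 2167 in IM and 10865 in TAM, and Fcgr4, 2.19-fold. The Ms4a family of membrane proteins lay at both ends. Ms4a4c, Ms4a4b and Ms4a4a were higher in IM, by 3.82-, 3.37- and 2.10-fold, and Ms4a7 and Ms4a14 higher in TAM, by 8.33- and 8.57-fold. C-type lectins were split as well, with 3 of 19 higher in IM and 4 in TAM.

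Lipid handling genes held 11 of 27 higher in TAM and 3 in IM. Apoe, which carries cholesterol out of cells, had 100600 in IM and 693848 in TAM, 6.90-fold apart. Pltp, which transfers phospholipids, was 5.66-fold higher in TAM, and Nr1h3, the gene of the oxysterol receptor LXR alpha, had 1198 and 4091. Abca1 and Abcg1, cholesterol exporters and known LXR targets, had log2 ratios of -1.43 and -0.47. Ch25h, which makes an oxysterol, had 586 and 3759, and Vldlr, a lipoprotein receptor, 5.56 and 149. Spp1 and Fabp3 stood the other way, among the genes higher in IM.

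Lysosomal genes leaned to TAM, most of them by less than 2-fold. Of 42 kept, 7 were higher in TAM and none in IM, while 8 had a ratio above 1, with a median log2 ratio of -0.35. The 7 were Atp6v0d2, Cd63, Ctsf, Acp5, Lgmn, Ctsb and Naglu. Cd63, a tetraspanin of late endosomes, had 2405 in IM and 15052 in TAM. The cathepsins Ctsd (-0.76), Ctss (-0.62), Ctsl (-0.54) and Ctsz (-0.22) lay within 2-fold. Of 17 iron genes, 5 were higher in TAM, among them the iron exporter Slc40a1 (98.8 against 397), which has no p in the TAM tables, and transferrin Trf (599.7 against 2416). The 1 higher in IM was Lcn2, a neutrophil granule protein that binds bacterial iron carriers.

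Chemokines stood mostly with TAM: 11 of 22 were higher in TAM and 1 in IM, with a median log2 ratio of -1.02. Ccl8, an attractant of monocytes, had 4946 in IM and 123187 in TAM, 24.9-fold apart. The related Ccl7 (-2.40) and Ccl12 (-1.76) and the T cell attractants Ccl5 (-2.16), Cxcl16 (-2.02) and Cxcl9 (-1.55) were also higher in TAM, whereas Cxcl10 had 0.17. Cxcl13, the B cell attractant, had 3.24 and 97.9. Ccl2, the main ligand of CCR2, lay within 2-fold (-0.59), and Ccl24, an eosinophil attractant, was 2.79-fold higher in IM.

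Genes often used to call macrophages alternatively activated did not share a direction, with 9 of 21 higher in TAM and 2, Chil3 and Ccl24, higher in IM. On the TAM side stood Pdcd1lg2 (the inhibitory ligand PD-L2, 1039 against 4488), Il10 (668 against 2271), Folr2, Mgl2, Mrc1, Trem2, Stab1, Cd163 and Ccl22. Arg1, arginase, had a log2 ratio of -0.69. Of 22 costimulatory and inhibitory ligands, 5 were higher in TAM and none in IM. Tnfsf4 (OX40 ligand) had 6.15 and 119.8, and Cd274 (PD-L1) had a log2 ratio of -0.05 and Cd86 -0.33.

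MHC class II genes, which present antigen to CD4 T cells, all had a ratio below 1, and 2 of 12 passed 2-fold. H2-Eb1 had 100697 in IM and 266515 in TAM, and H2-Aa was 2.11-fold higher in TAM. H2-Ab1 (-0.99) and the invariant chain Cd74 (-0.95) lay just inside 2-fold, and the class II regulator Ciita had -0.25. All 18 MHC class I genes lay within 2-fold, with a median of 0.01.

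Of 44 myeloid transcription factors, 36 lay within 2-fold, a share near the 87.4% of all kept genes, with a median log2 ratio of 0.15. Spi1, which encodes PU.1, had 19610.2 in IM and 17758 in TAM. Irf8 (-0.10), Klf4 (0.03), Cebpb (0.29) and Runx1 (0.09) also lay within 2-fold. Cebpe (146 against 22.6) and Gfi1 (134 against 44.5), factors of granulocyte development, and Zbtb46, a dendritic cell factor, were higher in IM. Nr1h3, Id2 (9604 against 27849.5), Bhlhe41, Spic and Cebpa (2.11-fold) were higher in TAM.

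Against the same 87.4%, all 34 nuclear genes of oxidative phosphorylation lay within 2-fold (median 0.05), and so did 26 of 27 glycolysis and hypoxia genes (median -0.01), the exception being the glucose transporter Slc2a3, 5.13-fold higher in IM. Of 25 pattern recognition genes, 23 lay within 2-fold, with Nod2 higher in IM and Tlr3 in TAM. The 13 mitochondrially encoded genes, often read as a sign of RNA or cell quality, had log2 ratios from -0.66 to -0.27, and their part in other ratios was not tested. Of 20 genes that tissue dissociation induces, 19 lay within 2-fold, and Hspb1, a small heat shock protein, had 184 in IM and 696 in TAM.

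All 32 cell cycle genes had a ratio below 1, and 10 were higher in TAM, with a median log2 ratio of -0.84. Cdk1, the kinase that drives mitosis, had 169 in IM and 604 in TAM and 4857 in CD8 cells, and Mki67 had 1087 and 2831 and 9957. The pooled TAM values include irradiated tumours, in which 19 of the 32 fell after SBRT in the authors' deposited table (DESeq2, adjusted p below 0.05), against 1.36% of all kept genes. Of 18 p53 targets, 5 were higher in TAM. Phlda3, a p53-induced inhibitor of Akt, was 9.64-fold higher in TAM in the pooled means, and 12 of the 18 rose in TAM after SBRT, against 1.12% of all kept genes.

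Interferon response genes leaned to the IM side, mostly within 2-fold: 23 of 32 had a ratio above 1, 3 were higher in IM and 1 in TAM, with a median log2 ratio of 0.32. The 3 were Oas3 (3.35-fold), Isg20 (3.11-fold) and Oas2 (2.53-fold), which sense or degrade viral RNA. The 1 was Gbp2b (2.13-fold), whose reads may be split with near-identical relatives. These genes responded to treatment, so their pooled levels depend on the groups pooled, which were not in the same proportions in IM and TAM. In the authors' deposited tables (DESeq2, adjusted p below 0.05), 25 of the 32 rose in IM after IL-12 and 27 after both treatments, against 2.24% and 4.67% of all kept genes. In TAM 22 and 19 rose, against 0.845% and 2.57%.

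Markers of other cell types also differed between the sorts. Of 14 kept neutrophil markers, 12 were higher in IM (median 3.96), and the whole list summed to 33540 in IM, 10640 in TAM and 1032 in CD8 cells. The granule protein genes Ngp (2417 against 13.1), Camp (848 against 5.29) and Ltf (1486 against 16.7) and the surface gene Cd177 (1852 against 18.2) had the largest ratios of the genes that reached 500 in either population, when clone and predicted-gene names were set aside. Ly6g, whose antigen was gated out, had 28.4 and 8.69, Cxcr2, a receptor of mature neutrophils, 22.6 and 13.5, and Elane and Mpo, made by granulocyte and monocyte precursors, 32.2 and 64.1 in IM. Csf3r lay within 2-fold (9687 against 7763) and made up most of the TAM sum. The median level of the listed genes was 1436 in IM and 33.8 in TAM. The part of neutrophils or precursors in the IM ratios was not tested.

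Of 13 natural killer cell markers, 12 were higher in IM (median 2.21), with sums of 10260 in IM, 4642 in TAM and 283700 in CD8 cells, which share many of these genes. Ncr1 (NKp46) had 225 in IM and 5.30 in TAM and 15.9 in CD8 cells, and Gzma, a granule protease, had 1569 and 37.7 and 5189. Of 17 T cell markers, 1 was past 2-fold (Cd4, higher in TAM), and Cd3e had 194 in IM and 188 in TAM against 32718 in CD8 cells. The part of natural killer cells in the IM ratios was not tested.

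Dendritic cell markers held 9 of 18 higher in IM and 1 in TAM, with 11 ratios above 1 and a median log2 ratio of 0.66. The whole list nevertheless summed to 18960 in IM and 20960 in TAM. Cd209a, a lectin of monocyte-derived dendritic cells, had 240.4 in IM and 8.80 in TAM, and Flt3, a growth factor receptor of dendritic cells, 144 and 9.11, whereas Clec9a, of cross-presenting dendritic cells, had 151 and 387. Of 5 kept eosinophil and mast cell markers, 4 were higher in IM, with Prg2 at 82.3 and 2.06 and Ccr3 at 329 and 47.2, while Epx was at 1.92 in IM and listed at 0 in TAM, and Fcer1a was listed at 0 in both. Of 12 kept pancreatic acinar enzymes, 9 were higher in TAM, with sums of 1395 and 3266 for the list. Epithelial markers summed to 1283 and 2507, and of 6 kept among 12, 4 were higher in TAM and 1 in IM. Endothelial markers summed to 1286 and 3152, but only 3 of 10 were kept, 2 higher in TAM and 1 in IM. The median level of the 10 was 11.8 in IM and 9.41 in TAM, and 5 lay below 10 in IM and 6 in TAM. Acinar, epithelial and endothelial cells do not carry the CD45 that both sorts required. Of 11 kept cavity macrophage genes, 3 were higher in IM and 2 in TAM, with a median log2 ratio of 0.27. F5 (1174 against 149), Alox15 (1587 against 699) and Serpinb2 (1165 against 393) were higher in IM and Prg4 (11.02 against 312) and Timd4 (41.4 against 147) in TAM, and the cavity factor Gata6, below the level kept, had 4.09 and 24.5. The part of the cell types in this paragraph in the ratios was not tested.

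**Figure D3:**
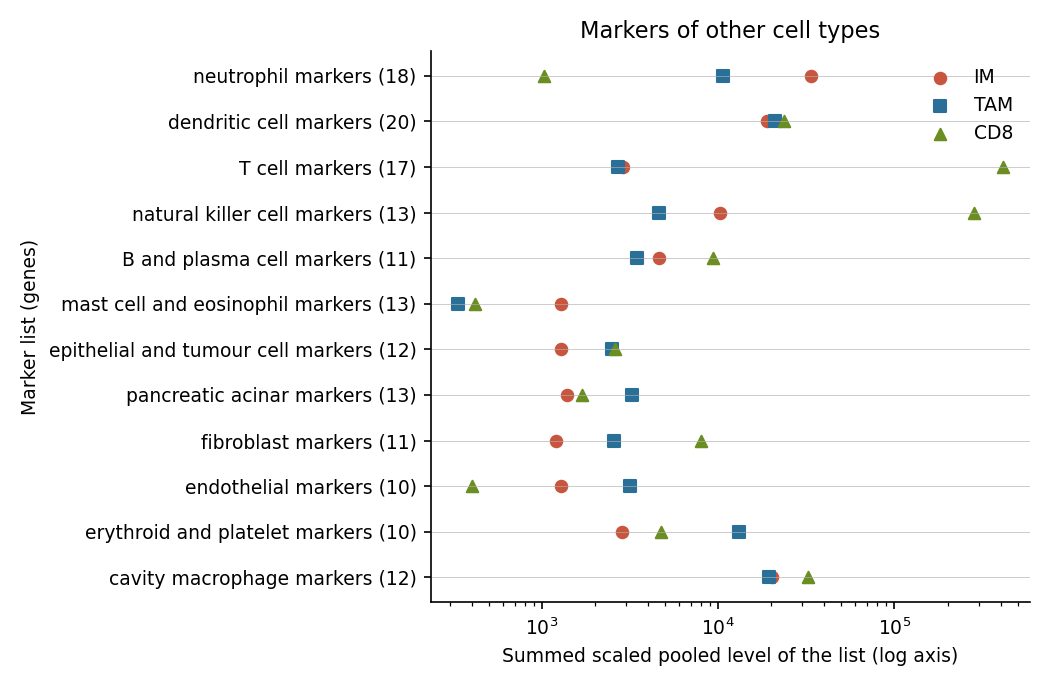
Summed scaled pooled level (log axis) of marker lists of 12 other cell types in IM (circles), TAM (squares) and CD8 cells (triangles), with the number of genes summed in brackets. Neutrophil sums are 33540 in IM and 10640 in TAM, where Csf3r makes up most of it. Natural killer sums are 10260 and 4642, and the T cell sums of both lie far below that of CD8 cells.

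Other genes with the largest ratios at a level of at least 500 were Retnlg, Dgkg, Dmkn and Chil4 on the IM side, by 38.3-, 33.0-, 29.9- and 22.5-fold. Retnlg, a resistin-like secreted protein, is also a member of the neutrophil list above. Dgkg is a diacylglycerol kinase, and Chil4 a close relative of Chil3 whose reads may be shared. On the TAM side Mtmr7, a phosphoinositide phosphatase, had 130.3 in IM and 6127 in TAM, and 16038 in CD8 cells. Cadm1, Pdgfc, Fcna, Cd72, Gdf15, Apol7c, Cp and Pmp22 followed, by 23.7-, 23.2-, 19.2-, 13.6-, 12.5-, 12.5-, 11.8- and 11.7-fold. Fcna is ficolin A, a lectin that starts the complement cascade, Gdf15 a stress cytokine, and Cp ceruloplasmin, a copper-carrying ferroxidase. The library kit does not mark strand, so reads of Mtmr7 and Vps37a, Cd81 and R74862, Cd72 and Tesk1, Gas6 and Tmem255b, Cp and Hps3, Ace and Gm11651, and Fcna and Fcnaos, which overlap on opposite strands, cannot be told apart.

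Ficolins lay at opposite ends, since Fcnb, ficolin B, had 120.3 in IM and 0.616 in TAM. At levels between 50 and 500 the IM side further held Cftr (212 against 0.442), Itgb2l (57.8 against 0.195), Klra8, Klra9 and Steap4. Cftr encodes an epithelial chloride channel and has no p in the IM tables, and the Klra genes are natural killer receptors with near-identical copies. The TAM side of that range held Srrm3os, Irs1, Magi1, Ptprm, Ly6g6e, Elavl3 and Rgl3 besides Lyve1, Cxcl13 and Prg4. Srrm3os, Irs1 and Magi1 were at 0.388, 0.559 and 1.91 in IM. Of all kept genes, 16 lacked a p in the IM tables and 8 in the TAM tables.

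To describe the ratios by treatment group, the level of each group was rebuilt from the pooled mean and the 3 deposited fold changes of a population. Rebuilt levels are approximate, since the fold changes were shrunken, and no error can be given. Over the 4 groups they average back to the pooled mean, so they lend it no support. Counted over all genes, 762 were higher in IM and 1437 in TAM in unirradiated tumours, against 587 and 1133 after both treatments, and the difference could not be tested.

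Ly6c2 rebuilt to 29598 in unirradiated IM, 39256 after SBRT, 65987 after IL-12 and 63566 after both, and in TAM to 1691, 2178, 2855 and 2595. Its fold in favour of IM was 17.5 in unirradiated tumours and 24.5 after both. Ccr2 rebuilt to 59026, 52417, 42812 and 39492 in IM and to 12489.9, 12417, 14749.7 and 12662 in TAM, a fold of 4.73 in unirradiated tumours and 3.12 after both. C1qa rebuilt to 17153, 22019.8, 23408 and 26079.7 in IM and to 121721, 110024, 114056 and 109241 in TAM. Its fold in favour of TAM was 7.10 in unirradiated tumours and 4.19 after both. Phlda3 had 145 in IM and 342 in TAM of unirradiated tumours but 199.8 and 3853 after SBRT (folds of 2.36 and 19.3).

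**Figure D4:**
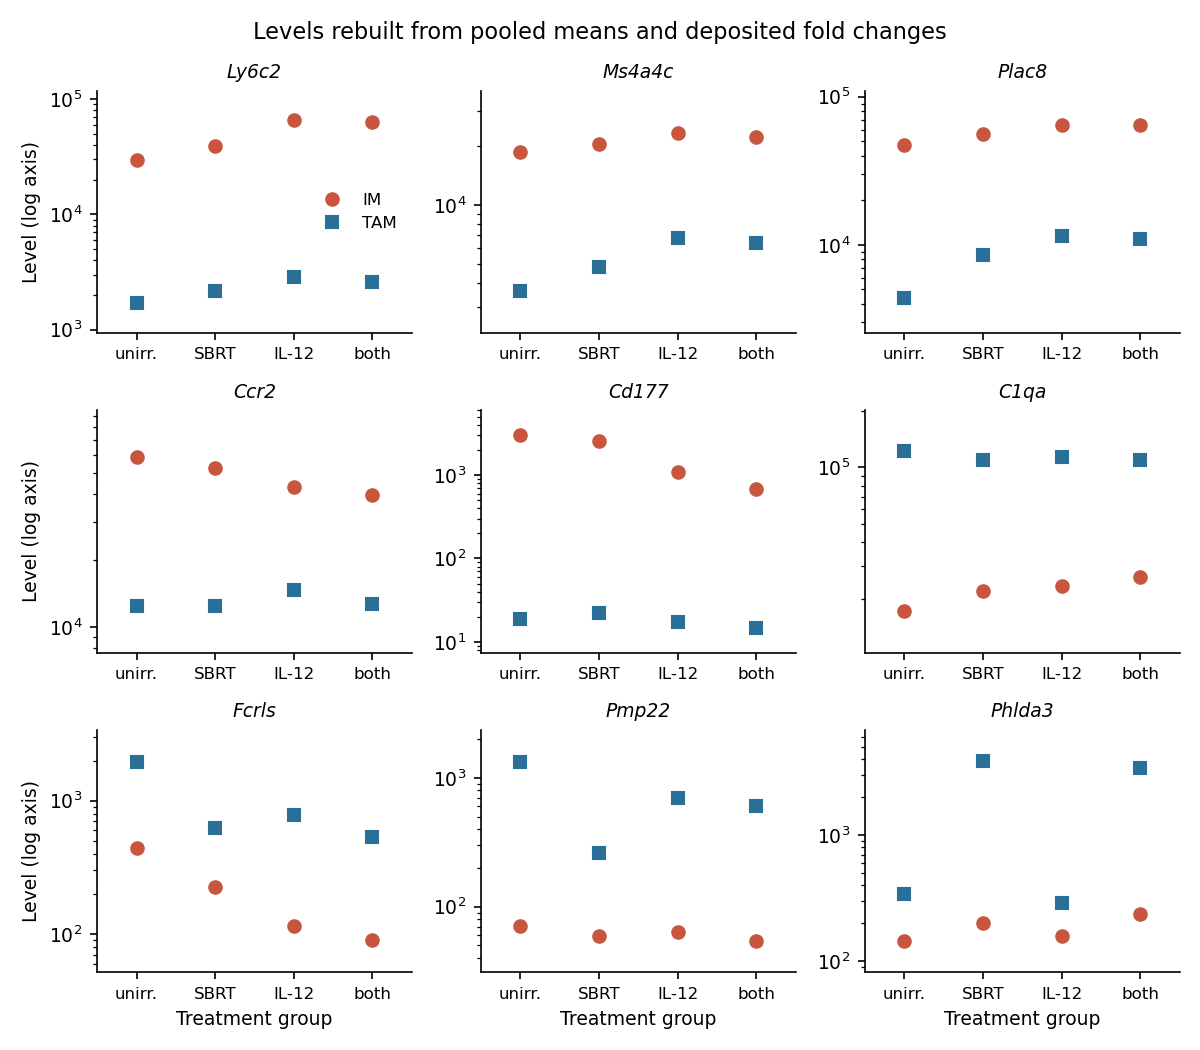
Level (log axis) of 9 genes in IM (circles) and TAM (squares) in the 4 treatment groups, rebuilt from pooled means and deposited fold changes, with no error shown because none can be computed. Ly6c2 is 17.5-fold higher in IM in unirradiated tumours and 24.5-fold after both treatments, the levels of Plac8 lie closer together after IL-12, and Phlda3 in TAM is 342 in unirradiated tumours and 3853 after SBRT.

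The genes on either side were also followed through the authors' deposited tests against unirradiated cells (DESeq2, adjusted p below 0.05). The 3 comparisons of a population share their unirradiated libraries. The pooled means hold the treated libraries, so a gene's change with treatment helps to decide its side, and the shares below are a description. Choosing genes by the rebuilt unirradiated levels also shares libraries with the fold changes, and its shares are given where they differ by over 1.5 times.

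In IM after both treatments, 107 of 597 IM-side genes with an adjusted p fell (17.9%), against 3.69% of all kept genes, and 32 rose (5.36% against 4.67%). After IL-12 alone 54 fell (9.05% against 1.48%) and 22 rose (3.69% against 2.24%). After SBRT alone 5 fell (0.838% against 0.155%) and 1 rose (0.168% against 0.493%). With genes chosen by unirradiated levels, 3.44% rose after both, 1.98% after IL-12 and 0% after SBRT. Of the TAM-side genes in IM, 85 of 1151 rose after both treatments (7.39% against 4.67%) and 46 fell (4.00% against 3.69%). After IL-12 33 of 1110 rose (2.97%) and 28 fell (2.52%), and with genes chosen by unirradiated levels 4.95% rose and 1.55% fell. After SBRT 13 of 1155 rose (1.13%) and 4 fell (0.346%).

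The IM-side genes that fell in IM included markers of several cell types. Cd177 fell by 2.16 ± 0.19 (log2, standard error; DESeq2 adjusted p = 1.282e-26) after both treatments, Cd209a by 2.31 ± 0.22 (adjusted p = 8.993e-23) and Dmkn by 2.05 ± 0.21. Of the 14 neutrophil markers 4 fell and 1 rose, and the adjusted p of Ngp was 0.541 and that of Camp 0.631. Classical monocyte genes moved in both directions. After both treatments 8 of 19 fell, among them Vcan (fell by 1.23), S100a4 (fell by 1.19), Thbs1 (fell by 1.06), Chil3 (fell by 0.98) and Ccr2 (fell by 0.58). The 4 that rose were Ly6c1 (1.16), Ly6c2 (1.10), Gpr141 (0.66) and Plac8 (0.44).

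Macrophage genes moved in both directions in IM as well, with 4 of 28 that rose and 5 that fell after both treatments. C1qa (0.60), C1qb (0.71) and C1qc (0.74) rose, with Aif1. Cd163 fell by 1.99, Mrc1 fell by 0.99, Ms4a7 fell by 0.87, and Trem2 and Sepp1 fell too. Beyond that list Ch25h rose by 1.79 ± 0.21 (DESeq2 adjusted p = 1.457e-14) and Fcrls, an Fc receptor-like protein, fell by 2.30 ± 0.21 (adjusted p = 9.854e-25). Of the 12 MHC class II genes, 8 rose in IM after both, H2-Ab1 by 0.98.

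**Figure D5:**
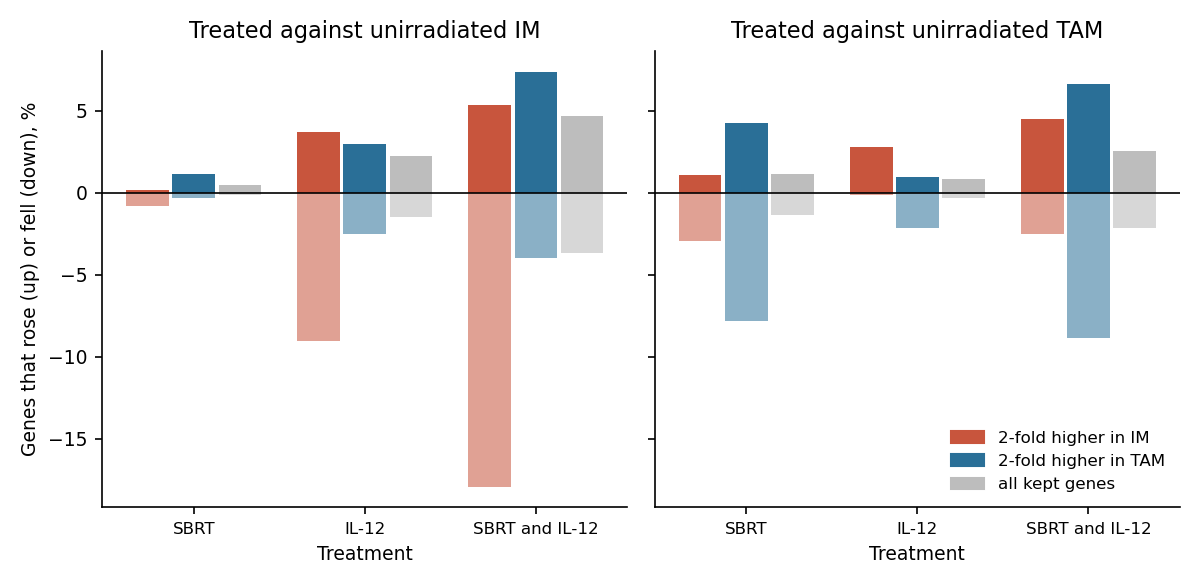
Percent of genes that rose (bars up) or fell (pale bars down) in the authors' deposited tests against unirradiated cells, in IM (left) and TAM (right) after each treatment, for genes at least 2-fold higher in IM (red), at least 2-fold higher in TAM (blue) and all kept genes (grey), with sides chosen by pooled means that include the treated libraries. The deepest bar is the 17.9% of IM-side genes that fell in IM after both treatments, against 3.69% of all kept genes.

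In TAM after SBRT, 92 of 1176 TAM-side genes fell (7.82% against 1.36%) and 50 rose (4.25% against 1.12%). After IL-12 25 fell (2.13% against 0.324%) and 11 rose (0.935% against 0.845%). After both 104 fell (8.84% against 2.15%) and 78 rose (6.63% against 2.57%), while among genes at least 4-fold higher in TAM 32 of 269 rose and 27 fell. With genes chosen by unirradiated levels, 2.17% rose after SBRT and 3.98% after both. After SBRT Phlda3 rose by 3.49 ± 0.19 (DESeq2 adjusted p = 6.219e-73) and Cpt1c, a carnitine palmitoyltransferase, by 2.50 ± 0.27. Pmp22, a myelin and membrane protein, fell by 2.35 ± 0.24 (adjusted p = 4.021e-19), Cxcl13 fell by 1.59 ± 0.23 and Marco fell by 1.24 ± 0.25.

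IM-side genes in TAM rose in 16 of 577 cases after IL-12 (2.77% against 0.845%), and 1 fell (0.173% against 0.324%). After both treatments 25 of 555 rose (4.50% against 2.57%) and 14 fell (2.52% against 2.15%), and after SBRT 6 of 571 rose (1.05% against 1.12%) and 17 fell (2.98% against 1.36%). With genes chosen by unirradiated levels, 2.35% rose after SBRT and 0.273% fell after IL-12. Of the classical monocyte genes, 5 of 18 rose in TAM after IL-12 and 7 of 18 after both. Plac8 rose by 1.40 ± 0.22 (DESeq2 adjusted p = 2.817e-07) after IL-12, as did Ly6c1 (0.98), Ms4a4c (0.89) and Gpr141 (0.69). F13a1 fell by 0.62. Plac8 rebuilt to 4357 in unirradiated TAM and 11474 after IL-12, against 47232 and 64104 in IM. Lrg1, an IM-side glycoprotein, fell in TAM by 2.19 ± 0.26 after SBRT (adjusted p = 5.89e-14).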

How the data were processed

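RNA of sorted cells was sequenced on a HiSeq 2500 from libraries made with a kit that does not mark strand. The submitters' processing notes list STAR 2.6.0c, Salmon, featureCounts, Subread, Trimmomatic 0.36 and FastQC 0.11.8, and the build GRCm38. The authors deposited DESeq2 tables that hold, per the file headers, a mean normalised signal per gene, a log2 fold change, a statistic (a score), a p-value and an adjusted p-value. The 3 tables of each population carry the same mean. Depth per library is unknown.

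Means of IM, TAM and CD8 cells were scaled to the same sum with pandas 2.3.3 and numpy 2.4.6. Kept genes had a scaled level of at least 50 in IM or TAM, and no pseudocount was added. Standard errors are the fold change divided by the statistic. Named genes were the 15 largest ratios each way at a level of at least 500 and the 10 largest at 50 to 500 (leaving out predicted genes, pseudogenes and receptor segments), the 5 markers, members of the 4 identity lists, up to 3 members each way of other lists, and up to 4 genes each way per table by adjusted p. Other genes named were picked from their lists after their values were seen. The members and the 43 lists were chosen with earlier results of these data known. The calculation of ratios and rebuilt levels was tested on simulated data. That test checked the arithmetic only, since the simulated fold changes were not shrunken and the simulated populations were not normalised separately. Some members of the lists are counted but not reported here by name.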

Additional observations from a re-analysis of the deposited data

How the results depend on the processing

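No paired analysis was possible because the tables hold no values for single libraries, and for the same reason no library could be left out. With scaling by the median ratio, or to the same sum without the highest genes, the count of genes higher in IM past a fold of 2 was 582 or 527 (from 604) and that of genes higher in TAM past a fold of 2 was 1212 or 1344 (from 1182), and all ratios shifted by -0.02 or -0.08 on the log2 scale. A level of at least 10 gave 1037 in IM and 2073 in TAM, a level of at least 200 gave 393 and 615, and a fold of 4 gave 181 and 272.

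The percent of genes that rose or fell after treatment moved in these cases. A stricter adjusted p on the same genes cannot raise a percent. The cause of the moves under the other settings was not tested. With an adjusted p below 0.01, genes higher in IM gave in IM 0% rose and 0.335% fell after SBRT, 6.20% fell after IL-12 and 12.9% fell after both. In TAM they gave 1.05% fell after SBRT, 1.39% rose after IL-12, and 2.16% rose and 1.26% fell after both. Genes higher in TAM gave in IM 0.519% rose and 0.0866% fell after SBRT, 2.07% rose after IL-12, and 4.34% rose and 2.61% fell after both. In TAM they gave 2.72% rose and 4.00% fell after SBRT, 0.425% and 1.19% after IL-12, and 4.08% and 5.78% after both. At that threshold, of all kept genes in IM 0.261% rose and 0.0564% fell after SBRT, 1.47% and 0.884% after IL-12, and 2.96% and 2.03% after both, and in TAM 0.627% and 0.662%, 0.465% and 0.176%, and 1.43% and 1.14%.

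With genes past 4-fold, those higher in IM gave in IM 0% rose and 2.27% fell after SBRT, 14.8% fell after IL-12 and 25.6% fell after both, and in TAM 7.43% fell after SBRT and 0% fell after IL-12. Those higher in TAM gave in IM 1.98% rose after IL-12 and 5.35% fell after both, and in TAM 8.55% rose and 9.67% fell after SBRT, 4.83% fell after IL-12 and 11.9% rose after both.

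With genes chosen by rebuilt unirradiated levels, which share libraries with the fold changes, those higher in IM gave in IM 0% rose after SBRT, 1.98% rose after IL-12 and 3.44% rose after both, and in TAM 2.35% rose after SBRT. Those higher in TAM gave in IM 4.95% rose and 1.55% fell after IL-12 and 10.8% rose and 2.92% fell after both, and in TAM 2.17% rose after SBRT and 3.98% rose and 11.1% fell after both.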
